A study of Homo sapiens with 4 samples.

Results

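Genes of cholesterol synthesis, uptake and SREBP2 control were compared between a leukaemia cell line and its drug-resistant derivative. The group was set as a list of 31 gene symbols, of which 28 were measured among 18417 genes tested, and each gene was read at its brightest probe set over the 4 arrays. HSD17B7 shared its probe set with other genes and was left out, and FDFT1 and NR1H2 were not analysed here. MV4-11 is a human line from an acute myeloid leukaemia, with a fused MLL gene and a FLT3 kinase activated by tandem duplication. It is labelled drug-sensitive and high in EZH2 (2 arrays). MV4-11R was grown from it under PKC412 (midostaurin), a drug that blocks FLT3 and other kinases, given at increasing dose for 3 months, and is labelled drug-resistant and low in EZH2 (2 arrays). MV4-11R is a single derivation, and whether it is 1 clone, and whether PKC412 was present when RNA was taken, are not given in the sources used here. Nothing in the labels ties the 2 arrays of a line to separate cultures, and the p-values then reflect only how far these arrays spread, which may be technical.

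Cells make cholesterol from acetyl-CoA by way of mevalonate, isoprenoids, squalene and lanosterol. The transcription factor SREBP2, encoded by SREBF2, is held in the endoplasmic reticulum with its escort SCAP and the INSIG proteins while sterol is plentiful, and is released to switch on the enzymes of the pathway when sterol runs low. LXR receptors act on the other side, switching on genes that export sterol or reduce its uptake when oxysterols accumulate.

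Array medians lay between 6.75 and 6.78 in log2 signal. Background was gauged from 361 olfactory receptor genes, most of them silent outside the nose, whose 95th percentile was 6.28. All values of the 28 genes lay above it, from 6.54 to 12.23. Of 11 myeloid markers 10 lay above it on every array, and ANPEP, a myeloid surface peptidase, lay above it on 3 of 4. So did some markers of other cell types on every array, 3 of 6 for B cell and 2 of 8 for T and NK cell. The counts were 2 of 5 for erythroid and megakaryocytic and 6 of 8 for epithelial and fibroblast markers. The mean level of a list moved little over the 4 arrays, between 9.92 and 10.24 for the myeloid markers, 6.37 and 6.55 for B cell, 5.99 and 6.22 for T and NK cell, 6.28 and 6.41 for erythroid and megakaryocytic, and 6.56 and 6.72 for epithelial and fibroblast markers. Single markers did change, and are named here after their values were seen. Among the myeloid markers 4 of 11 fell, ANPEP by 1.18, FLT3 by 0.93, PTPRC by 0.81 and LYZ by 0.69 log2 units. Of 6 B cell markers CD79B fell by 1.09 and PAX5 rose by 0.80, of 8 T and NK cell markers NKG7 rose by 0.94, of 5 erythroid and megakaryocytic markers ITGA2B fell by 0.67, and of 8 epithelial and fibroblast markers KRT18 fell by 0.58. ANPEP, FLT3, CD79B and NKG7 kept their call in all 12 alternative settings. The other 5 lost it on leaving out at least 1 array, with adjusted p up to 0.0780 for LYZ (MV4-11 replicate 2 or MV4-11R replicate 2), 0.0647 for PTPRC, 0.0773 for PAX5 and 0.0903 for ITGA2B (either MV4-11 array or MV4-11R replicate 1) and 0.123 for KRT18 (either MV4-11 array or MV4-11R replicate 2). The part of these marker changes in the results below was not tested.

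EZH2, which sets the lines' labels, read 9.75 and 9.74 in MV4-11 and 9.90 and 9.29 in MV4-11R. The arrays overlapped, and the low EZH2 of the MV4-11R label was not seen in this RNA signal. The difference was -0.14 (SE 0.20, adjusted p = 0.734), within the spread between arrays, and without MV4-11R replicate 2 the sign turned (0.16).

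Some genes at each step of the pathway fell in the resistant line. Of the 28 genes 12 fell, 0 rose and 16 did not pass limma's test at an adjusted p under 0.05 over all genes, where 7.13% of the 18417 genes fell and 15.1% passed in either direction. At an unadjusted p under 0.05 in either direction the count was 18 of the 28, and 5270 of the 18417 genes. The median log2 difference, MV4-11R minus MV4-11, was -0.63 over the 28 genes and 0.01 over all genes. Both MV4-11R arrays lay below both MV4-11 arrays for 23 of the 28, a pattern found for 26% of all genes, and above them for 1, where the lines did not overlap in either direction for 55.6% of all genes. A difference below 0 was found for 26 of the 28 and for 48.5% of all genes, and a fall of at least 2-fold for 5 of the 28 and for 2.59% of all genes. Among the 17 measured synthesis enzymes 8 fell, with a median of -0.71, and among the 11 regulators, transporters and receptors 4 fell, with a median of -0.59. The list was put together with results of these arrays known, so these counts describe it and are not independent evidence of its direction.

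**Figure D1:**
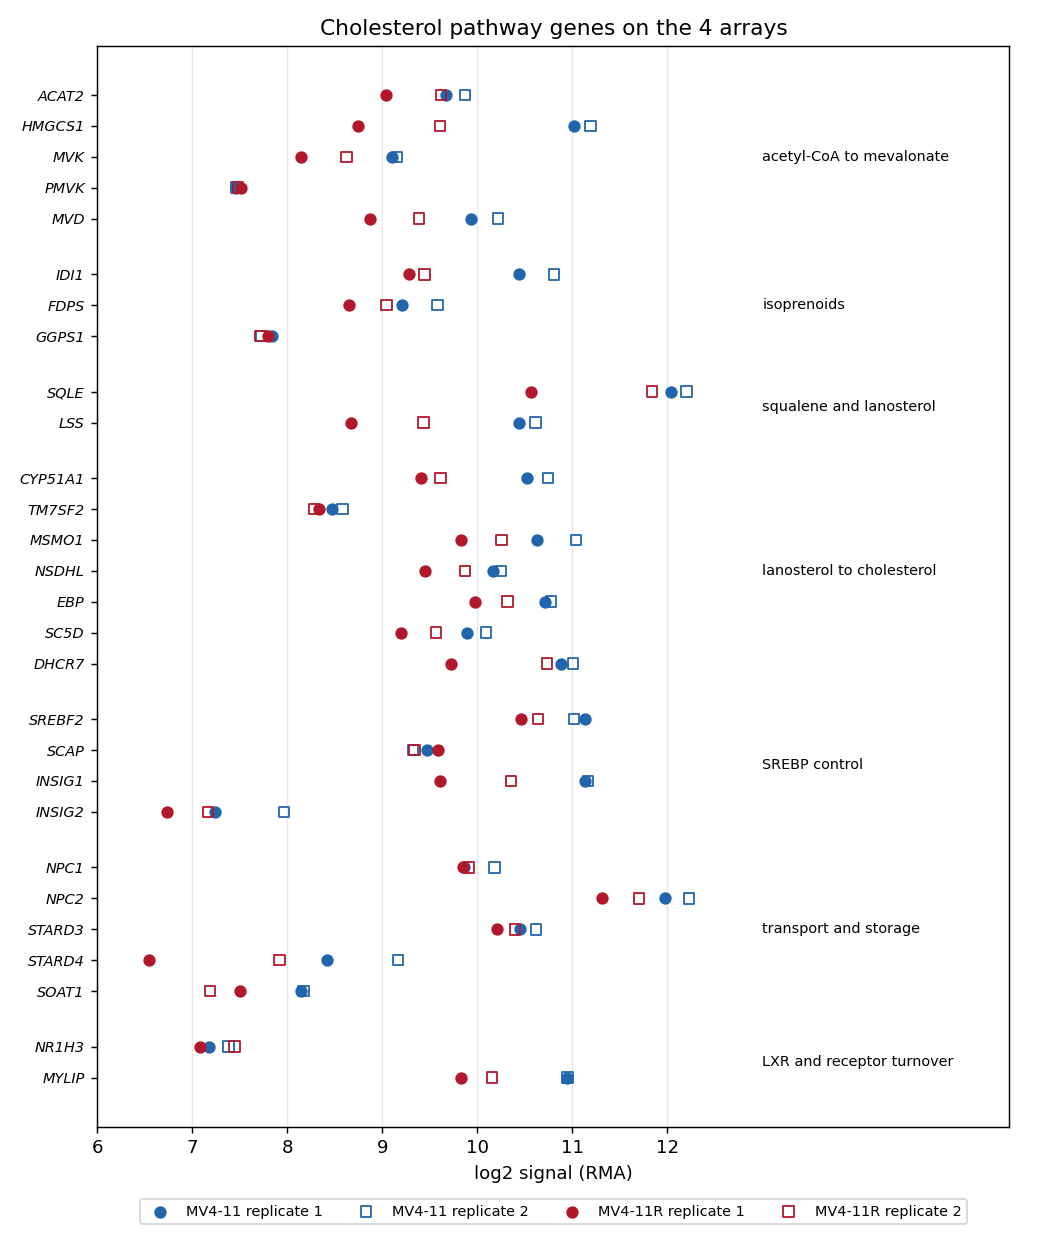
Log2 signal (x axis) of each of the 28 genes (y axis, grouped by pathway step) on the 4 arrays, with MV4-11 in blue, MV4-11R in red, replicate 1 as filled circles and replicate 2 as open squares. For 23 genes both red symbols lie to the left of both blue symbols, and the gap between the red symbols is widest for STARD4 and SQLE.

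The first steps, from acetyl-CoA to mevalonate pyrophosphate, held the gene with the largest fall. HMGCS1, the cytosolic synthase that makes HMG-CoA, read 11.02 and 11.19 on the MV4-11 arrays and 8.75 and 9.61 on the MV4-11R arrays. The lines did not overlap, and the difference of -1.93 (SE 0.27, adjusted p = 0.00920), a 3.80-fold fall, was more than double the gap of 0.86 between the MV4-11R arrays. Mevalonate kinase MVK read 9.10 and 9.15 in MV4-11 against 8.14 and 8.62 in MV4-11R, a fall of 0.75 log2 units (a 1.68-fold change, adjusted p = 0.0383). The decarboxylase MVD, which makes isopentenyl pyrophosphate, read 9.93 and 10.22 against 8.86 and 9.39 and fell 1.93-fold (adjusted p = 0.0289). The enzyme between MVK and MVD did not pass. Phosphomevalonate kinase PMVK read 7.46 on both MV4-11 arrays and 7.51 and 7.48 on the MV4-11R arrays. Its difference was 0.04 (95% interval -0.22 to 0.29), and a fall of the size seen for MVK or MVD lay outside that interval. The interval holds only the spread of these arrays, and PMVK was dimmer than MVK and MVD. RMA compresses differences near background, and whether this affected PMVK was not tested. For ACAT2, the cytosolic acetyl-CoA acetyltransferase that joins the first 2 acetyl units, the arrays read 9.67 and 9.87 against 9.04 and 9.62. They did not overlap, but the difference of -0.44 (95% interval -0.94 to 0.06) did not pass.

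In the isoprenoid steps the isomerase IDI1 fell and the prenyl transferases did not pass. IDI1, which interconverts the C5 isoprenoid units, read 10.44 and 10.80 in MV4-11 and 9.28 and 9.44 in MV4-11R, a 2.39-fold fall (log2 difference -1.26, SE 0.16, adjusted p = 0.00602). Farnesyl pyrophosphate synthase FDPS read 9.20 and 9.58 against 8.65 and 9.04, without overlap, and its difference of -0.54 did not pass (adjusted p = 0.115). The arrays of both lines spread by about 0.4 for FDPS, with replicate 2 the higher in each. A further 2 probe sets list FDPS together with a pseudogene and were not used. GGPS1, which turns farnesyl pyrophosphate into the geranylgeranyl form for protein prenylation, overlapped between the lines, at 7.84 and 7.73 against 7.79 and 7.72 (difference -0.03, 95% interval -0.30 to 0.24).

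Squalene epoxidase SQLE and lanosterol synthase LSS carry out the steps that close the sterol ring. LSS read 10.44 and 10.61 in MV4-11 and 8.67 and 9.43 in MV4-11R, the second largest of the 12 falls (2.78-fold, log2 difference -1.48, SE 0.25, adjusted p = 0.0146). SQLE read 12.04 and 12.20 against 10.56 and 11.84. The MV4-11R arrays thus stood 1.28 log2 units apart, 1 of them close to MV4-11 and the other far below. Its difference of -0.92 (SE 0.38, adjusted p = 0.181) did not pass with all arrays. Leaving out MV4-11R replicate 2 brought it to -1.56, and leaving out MV4-11R replicate 1 brought it to -0.28.

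All 7 measured enzymes from lanosterol to cholesterol were lower on both MV4-11R arrays, and 3 of them fell. The lanosterol demethylase CYP51A1 read 10.52 and 10.74 against 9.40 and 9.61, a 2.18-fold fall (log2 difference -1.13, SE 0.14, adjusted p = 0.00563). The arrays lay about 0.2 apart in each line, and CYP51A1 had the smallest adjusted p of the 28 genes. The gene had a second probe set, which read 9.20 and 9.75 against 8.50 and 8.70 and whose difference of -0.87 did not pass when probe sets were tested on their own (adjusted p = 0.104, against 0.0300 for the first in the same test). The C4-methyl sterol oxidase MSMO1 read 10.63 and 11.04 against 9.83 and 10.25, a 1.73-fold fall (adjusted p = 0.0481), and the sterol isomerase EBP read 10.71 and 10.78 against 9.97 and 10.32, a 1.51-fold fall (adjusted p = 0.0439).

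The other 4 late enzymes did not pass. The lathosterol oxidase SC5D, at 9.89 and 10.09 against 9.19 and 9.57, had a difference of -0.61 (adjusted p = 0.0543), and the dehydrogenase NSDHL, at 10.16 and 10.25 against 9.45 and 9.87, had one of -0.55 (adjusted p = 0.0759). Both lay just short of the threshold, which either of them passed with each array centred on its median (adjusted p = 0.0292 for SC5D and 0.0470 for NSDHL). DHCR7, which makes cholesterol from its last precursor, read 10.88 and 11.00 against 9.72 and 10.73. As for SQLE, MV4-11R replicate 1 was far below and replicate 2 close to MV4-11, and the difference of -0.71 (SE 0.31, adjusted p = 0.1996) became -1.22 without MV4-11R replicate 2 (adjusted p = 0.00659). The sterol reductase TM7SF2 read 8.47 and 8.58 against 8.33 and 8.28, a difference of -0.22 (95% interval -0.49 to 0.05) that did not pass.

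**Figure D2:**
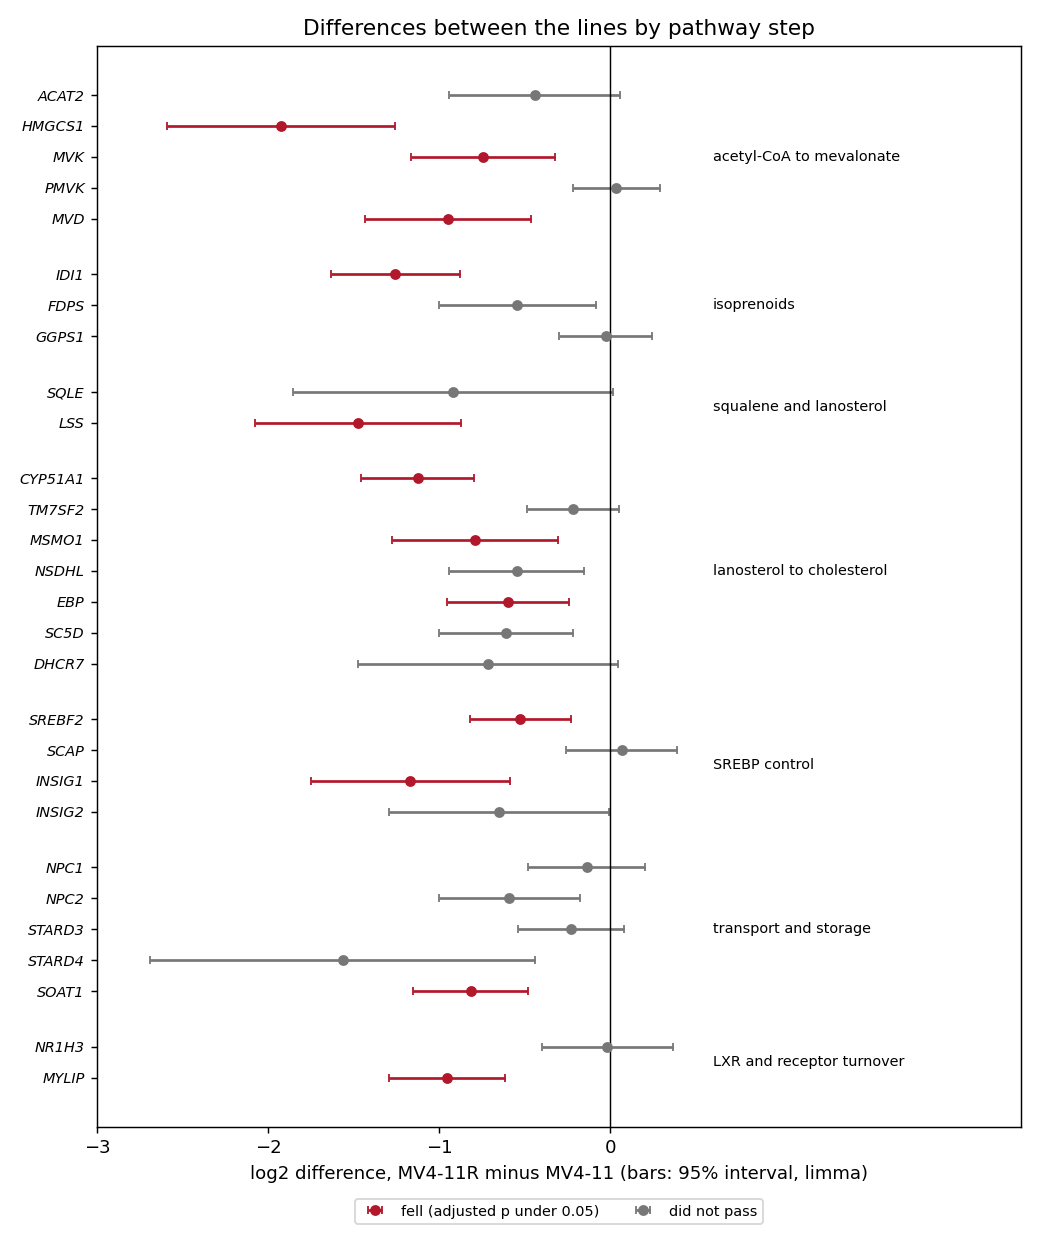
Log2 difference, MV4-11R minus MV4-11 (x axis), of each gene by pathway step (y axis), with bars for the 95% interval from limma, in red for the 12 genes that fell and in grey for the 16 that did not pass. The points run from HMGCS1 at -1.93 to SCAP at 0.07, and the widest intervals belong to STARD4 and SQLE.

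Of the SREBP control genes the factor itself and 1 of its retention proteins fell. SREBF2 kept its call in 8 of the 12 alternative settings and INSIG1 in 9, with the losses given below. SREBF2 read 11.13 and 11.02 in MV4-11 and 10.45 and 10.64 in MV4-11R, a 1.44-fold fall (log2 difference -0.53, SE 0.12, adjusted p = 0.0370). INSIG1, which retains SCAP in the endoplasmic reticulum and is itself induced by SREBP, read 11.14 and 11.16 against 9.61 and 10.35, a 2.25-fold fall (log2 difference -1.17, SE 0.24, adjusted p = 0.0263). Its paralogue INSIG2 read 7.24 and 7.96 against 6.74 and 7.16. The MV4-11 arrays of INSIG2 stood 0.73 apart, and the difference of -0.65 did not pass (adjusted p = 0.170). SCAP, the escort, overlapped between the lines at 9.47 and 9.32 against 9.58 and 9.34 (difference 0.07, 95% interval -0.26 to 0.39).

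Promoter sequence was searched for the letters that SREBP and its usual partners bind, in RefSeq windows (GRCh38.p14) from 250 bases before to 50 after each gene's start, on both strands and counting each promoter once. The windows of 26 of the 28 genes were in the table. The sterol regulatory element TCACNCCAC (GTGGNGTGA on the other strand) was found in 1 of the 26, SREBF2, and in 1.14% of the 14237 windows of genes tested here. The CCAAT box bound by NF-Y (ATTGG on the other strand) was found in 17 of the 26 (65.4%) and in 36.3% of the windows of genes tested, and the Sp1 box GGGCGG, which reads as CCGCCC on the other strand, in 23 of the 26 (88.5%) and in 60.0%. By call, the CCAAT box was present in 10 of the 12 genes that fell and in 7 of the 14 that did not pass. Other forms of the sterol element were not searched, and a match in these windows is a description of letters.

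The stretches below show the same 100 bases, from 180 to 81 before the start, for SREBF2 and for those genes with a fall of at least 2-fold whose window holds a CCAAT box. Of the 5 genes with such a fall IDI1 and CYP51A1 had no CCAAT box in the window. Sequences run 5′ to 3′ on the gene's strand, and capitals mark the sterol element and the CCAAT boxes. SREBF2 is at chr22:41832925-41833024 on the plus strand, HMGCS1 at chr5:43313493-43313592 on the minus strand, LSS at chr21:46228855-46228954 on the minus strand and INSIG1 at chr7:155297698-155297797 on the plus strand.
SREBF2: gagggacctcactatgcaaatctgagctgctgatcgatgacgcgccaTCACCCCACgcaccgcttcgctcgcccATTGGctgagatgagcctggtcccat
HMGCS1: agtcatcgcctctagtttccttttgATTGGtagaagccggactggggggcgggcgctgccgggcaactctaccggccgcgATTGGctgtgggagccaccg
LSS: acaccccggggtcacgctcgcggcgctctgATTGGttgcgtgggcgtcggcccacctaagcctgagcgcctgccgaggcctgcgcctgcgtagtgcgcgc
INSIG1: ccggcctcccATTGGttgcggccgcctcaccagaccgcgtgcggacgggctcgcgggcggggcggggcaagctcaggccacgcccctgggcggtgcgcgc
In SREBF2 the sterol element and the CCAAT box, read on the other strand as ATTGG, lie in the same stretch, and in HMGCS1 it holds 2 such boxes.

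Of the genes that move and store sterol 1 of 5 fell and 4 did not pass. SOAT1, which esterifies cholesterol for storage, read 8.14 and 8.17 in MV4-11 and 7.50 and 7.19 in MV4-11R (1.76-fold fall, adjusted p = 0.0148). STARD4, a sterol carrier of the cytosol induced by SREBP2, had a large difference that did not pass. It read 8.42 and 9.17 against 6.54 and 7.92, so that both lines were spread, and the difference of -1.56 had an SE of 0.46 (adjusted p = 0.0756). Leaving out MV4-11R replicate 2 brought STARD4 to -2.25 (adjusted p = 0.00879). NPC2, the lysosomal protein that hands cholesterol to NPC1, read 11.97 and 12.23 against 11.32 and 11.70, a difference of -0.59 that did not pass (adjusted p = 0.0701).

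NPC1, the membrane protein that exports cholesterol from lysosomes, overlapped between the lines at 9.86 and 10.18 against 9.85 and 9.91 (difference -0.14, 95% interval -0.48 to 0.20). NPC1 lies on chromosome 18. There the 60 nearest genes above the median level of all genes were higher in MV4-11R by a median of 0.59. With that regional shift taken off, NPC1 had a difference of -0.73 (adjusted p = 0.0163). The regional shift around the 12 genes that fell was smaller, from -0.19 for IDI1 to 0.18 for MSMO1, and all 12 also passed with it removed. SQLE, on chromosome 8, had a regional shift of 0.32. With that removed its difference was -1.24 (SE 0.37), which did not pass limma's test (adjusted p = 0.0675). STARD3, an endosomal sterol carrier, read 10.45 and 10.62 against 10.21 and 10.39 (difference -0.23, adjusted p = 0.311).

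Of the LXR arm 2 genes were measured. NR1H3, which encodes LXR alpha, overlapped between the lines at 7.18 and 7.38 against 7.08 and 7.44 (difference -0.02, 95% interval -0.40 to 0.37). MYLIP, an LXR-induced ubiquitin ligase that sends lipoprotein receptors for degradation, read 10.94 and 10.95 against 9.83 and 10.15 and fell 1.94-fold (log2 difference -0.95, SE 0.14, adjusted p = 0.0101). The fall of MYLIP exceeded the gap of 0.32 between its MV4-11R arrays.

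**Figure D3:**
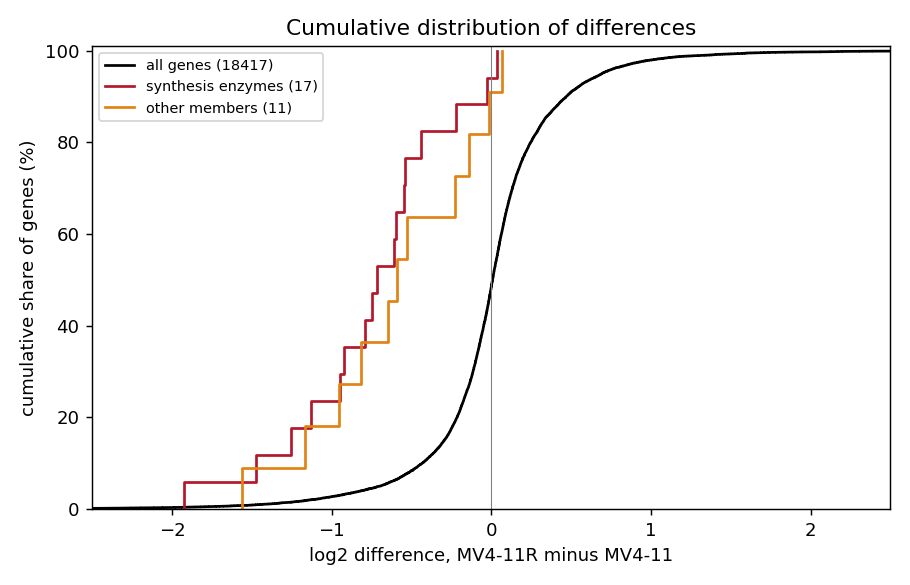
Cumulative share of genes (y axis, %) against log2 difference, MV4-11R minus MV4-11 (x axis), for all 18417 genes, the 17 synthesis enzymes and the 11 other measured members. The curves of both member groups lie to the left of that of all genes, with medians of -0.71 and -0.59 against 0.01.

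The 2 arrays of MV4-11R were not alike for these genes. MV4-11R replicate 1 read below replicate 2 for 23 of the 28 (82.1%), against 44.2% of all genes, and the median gap between the 2 arrays was 0.38 in size against 0.14 over all genes. The gap exceeded 0.5 for 8 genes in MV4-11R, among them STARD4 at 1.37, SQLE at 1.28, DHCR7 at 1.01 and HMGCS1 at 0.86. It did so for 2 genes in MV4-11, STARD4 and INSIG2. The share of all genes with such a gap was not counted. In MV4-11 too replicate 1 was the lower array for 25 of 28 genes, against 54.5% of all genes. The median gap in MV4-11 was 0.17 in size against 0.13 over all genes. Between same-numbered arrays the median difference over the 28 genes was -0.71 for replicate 1 and -0.53 for replicate 2. Each array was then left out in turn. Every fit with an array left out has 1 array in a line, so its p-value holds no spread within that line. Without MV4-11R replicate 2 the median difference over the 28 genes was -0.79. Without MV4-11R replicate 1 it was -0.43. MVD (adjusted p = 0.0650), MVK (0.0867), SREBF2 (0.135), EBP (0.135) and MSMO1 (0.147) then lost their call. Without MV4-11 replicate 1 the losses were INSIG1 (0.0599), MVK (0.0911), EBP (0.108) and SREBF2 (0.154), while INSIG2 passed (0.0357). Without MV4-11 replicate 2 they were INSIG1 (0.0617), SREBF2 (0.0851), MVD (0.0884), MVK (0.106), EBP (0.135) and MSMO1 (0.151). HMGCS1, IDI1, CYP51A1 and MYLIP kept their call in all 12 alternative settings run, and LSS and SOAT1 in all but the test of every probe set on its own (adjusted p = 0.0576 and 0.0533).

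**Figure D4:**
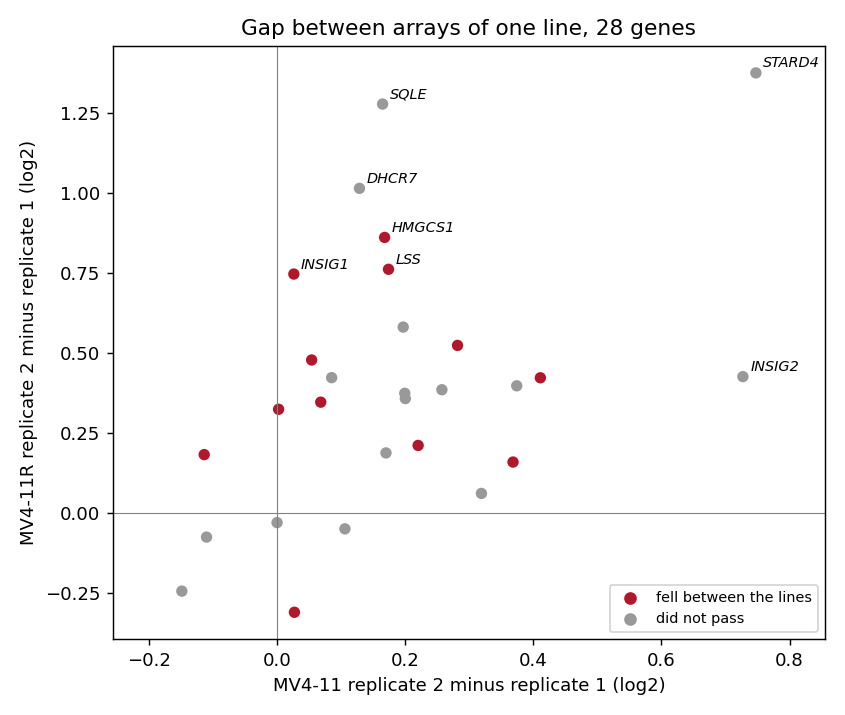
Gap between the arrays of a line for each of the 28 genes, replicate 2 minus replicate 1 in log2 units, in MV4-11 (x axis) and MV4-11R (y axis), with genes that fell between the lines in red. Most points lie above and to the right of 0, and STARD4, SQLE, DHCR7, HMGCS1, LSS and INSIG1 have the largest gaps in MV4-11R.

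Other genes of the pathway were counted in lists outside the 28. Over all genes 7.13% fell and 7.92% rose. The lists are small, and whether their counts differed from these shares was not tested. Fatty acid genes linked to SREBP had 6 falls, 2 rises and 14 genes of 22 that did not pass, with a median of -0.31. LPIN1, a phosphatidate phosphatase, read 9.44 and 9.46 against 7.93 on both MV4-11R arrays (2.86-fold fall, adjusted p = 0.00154), and ALDOC, an aldolase, fell 2.21-fold (adjusted p = 0.0347). The acyl-CoA synthetase ACSL1 rose 2.13-fold (adjusted p = 0.00412) and the elongase ELOVL6 rose 1.66-fold (adjusted p = 0.0467). ELOVL6 was dim, with 3 of its 4 arrays under the background guide of 6.28. Leaving out MV4-11 replicate 2 or MV4-11R replicate 1 took the adjusted p of ALDOC to 0.0976 or 0.0628, and that of ELOVL6 was 0.151 on leaving out MV4-11 replicate 1, 0.0749 for MV4-11 replicate 2 and 0.101 for MV4-11R replicate 2. ELOVL6 also did not pass with quantile normalization (0.0556), with every probe set tested on its own (0.121) or with a regional shift of 0.17 removed (0.0782).

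The genes of the isoprenoid branches use farnesyl and geranylgeranyl pyrophosphate for dolichol, ubiquinone and protein prenylation. Of 19 measured 6 rose, 0 fell and 13 did not pass, with a median of 0.29, where 7.92% of all genes rose. ZMPSTE24, the protease that trims farnesylated proteins, read 9.47 and 9.19 against 10.77 and 10.50 (2.47-fold rise, adjusted p = 0.00503). The ubiquinone methyltransferase COQ3 rose 2.06-fold (adjusted p = 0.00546), and both kept their call in all 12 settings. Whether this list and the synthesis enzymes differed as groups was not tested.

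**Figure D5:**
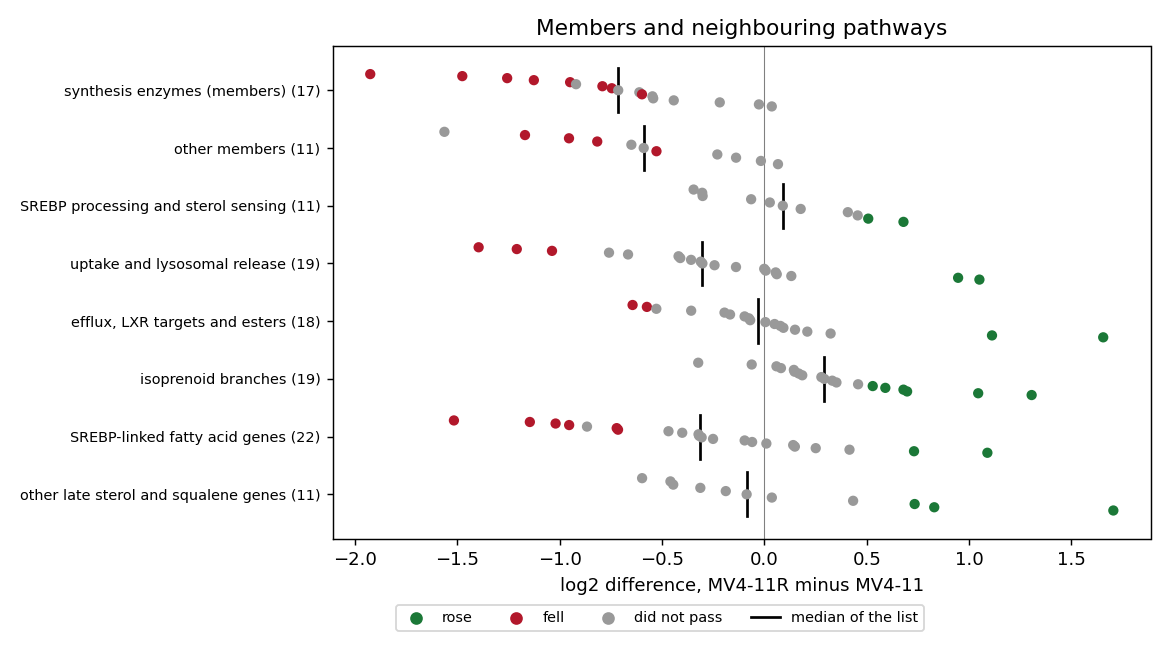
Log2 difference, MV4-11R minus MV4-11 (x axis), of each measured gene in the member groups and in 6 lists of other pathway genes (y axis, number measured in brackets), with rises in green, falls in red, genes that did not pass in grey and a bar at each median. Medians run from -0.71 for the synthesis enzymes to 0.29 for the isoprenoid branches.

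Among genes of uptake and lysosomal release 3 fell, 2 rose and 14 of 19 did not pass (median -0.30). Of all genes 7.13% fell and 7.92% rose. LIPA, the acid lipase that frees cholesterol from its esters in lysosomes, read 10.11 and 10.31 against 8.87 and 9.12 (2.31-fold fall, adjusted p = 0.00491), and the lipoprotein receptor VLDLR rose 1.93-fold (adjusted p = 0.00754). Both calls held in all 12 settings. The lysosomal membrane protein LAMP1 fell 2.63-fold and the oxysterol-binding protein OSBPL1A rose 2.07-fold, but their neighbours on chromosomes 13 and 18 had shifts of -0.96 and 0.62. With the regional shift removed neither passed (adjusted p = 0.0702 and 0.0809).

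Of the genes of sterol efflux, LXR response and ester handling 2 rose, 2 fell and 14 of 18 did not pass (median -0.03). The shares over all genes were 7.92% for rises and 7.13% for falls. The exporters ABCA1 and ABCG1, both known LXR targets, went in opposite directions. ABCA1 read 8.51 and 7.76 in MV4-11 and 9.43 and 9.06 in MV4-11R (2.16-fold rise, adjusted p = 0.0399). ABCG1 read 6.20 and 6.45 against 5.72 and 5.78 (1.49-fold fall, adjusted p = 0.0330), with both MV4-11R arrays and 1 MV4-11 array under the background guide of 6.28. The apolipoprotein APOC1 rose 3.15-fold (adjusted p = 0.0365) and the nuclear receptor coactivator NCOA1 fell 1.56-fold (adjusted p = 0.0208). Each of these 4 calls rested on at least 1 of the MV4-11 arrays. Without MV4-11 replicate 2 the adjusted p was 0.0722 for ABCA1, 0.138 for ABCG1 and 0.0550 for NCOA1, and without MV4-11 replicate 1 it was 0.0973 for APOC1 and 0.0871 for NCOA1. Without MV4-11R replicate 1 the calls on ABCA1 (0.125) and ABCG1 (0.107) were lost, and without MV4-11R replicate 2 those on ABCG1 (0.0665) and NCOA1 (0.0620). With quantile normalization ABCA1 had an adjusted p of 0.0508.

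The machinery that senses sterol and cleaves SREBP showed 2 rises, 0 falls and 9 of 11 genes that did not pass (median 0.09). For this list and the last one below, the shares over all genes were again 7.92% for rises and 7.13% for falls. RNF139, a sterol-responsive ubiquitin ligase of the endoplasmic reticulum, rose 1.60-fold (adjusted p = 0.0123) and UFD1, which helps extract proteins from that membrane, rose 1.42-fold (adjusted p = 0.0396). RNF139 did not pass once MV4-11 replicate 2 was left out (adjusted p = 0.0537) or a regional shift of 0.32 removed (0.0856). For UFD1 the adjusted p was 0.118 on leaving out MV4-11 replicate 1, 0.140 for MV4-11 replicate 2 and 0.145 for MV4-11R replicate 1, and it was 0.0512 with each array centred on its median. A last list, of other late sterol and squalene genes, had 3 rises, 0 falls and 8 of 11 genes that did not pass (median -0.09). The sterol desaturase family member FAXDC2 read 6.12 and 5.80 against 7.44 and 7.89 (3.26-fold rise, adjusted p = 0.00436), with MV4-11 under the guide of 6.28. The mitochondrial thiolase ACAT1 rose 1.78-fold (adjusted p = 0.0158), but not without MV4-11 replicate 1 (adjusted p = 0.0573). Its cytosolic paralogue ACAT2, a member above, was lower by 0.44 and did not pass.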

How the data were processed

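RNA of 4 samples was measured on Affymetrix gene arrays. The authors deposited log2 values for each probe set, and the submitters' processing notes name RMA and Affymetrix Expression Console, with versions not given in the sources used here. The log2 scale was read from the range of the values. RMA compresses differences near background. Of 33297 probe sets, 19460 were paired with 1 gene by the platform annotation, 1754 with several and 12083 were not listed. Symbols were updated by Entrez ID in RefSeq (GRCh38.p14). The brightest probe set per gene was kept, with no filter on level.

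All 18417 genes were fitted with limma 3.58.1 in R 4.3.3 (lmFit, eBayes, 2-sided, Benjamini-Hochberg over all genes; 6.06 degrees of freedom with the prior), with no block. Rose and fell mean an adjusted p under 0.05. SE is moderated. The number of arrays limits the precision. The fit was tested on simulated data under 3 assumptions on the spread of genes. With raw spreads fewer true changes were recovered, and with spreads less varied than limma's prior, false calls ran above the nominal rate, so calls near the threshold are the least sure.

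The members and all lists were chosen with earlier results of these data known. All members are named. In each other list the naming rule took the genes that passed, at most 2 in each direction, by size of difference. The sequence shown for HMGCS1, LSS and INSIG1 was chosen after seeing the motif matches. The regional shift is the median difference of up to 30 genes on each side in gene order, taken from genes above the median level of all genes. Alternatives left out each array, used the replicate number as a block, centred or quantile-normalized arrays, filtered dim genes, averaged probe sets, tested every probe set on its own, let the prior follow the level or removed the regional shift.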

Additional observations from a re-analysis of the deposited data

How the results depend on the processing

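The median difference over the 28 genes stayed below 0 in all 12 settings. With an array left out it ran from -0.79 to -0.43, with 6 to 19 members falling and passing and 1588 to 2479 of all genes passing. When every probe set was tested on its own, 4 members and 1505 probe sets passed, over more tests. EBP, INSIG1, LSS, MSMO1, MVD, MVK, SOAT1 and SREBF2 then lost their call. With a required change of at least 2-fold, 5 members and 839 genes passed. Over 336 pairs of member and setting, 279 kept direction and side of the threshold, 23 lost a call, 26 gained one and 8 changed sign, the last among members whose intervals included 0. With an array left out GGPS1 ran from -0.082 to 0.028 (0.011 without MV4-11R replicate 2), SCAP from -0.056 to 0.19 (-0.0081 without MV4-11 replicate 2), NPC1 from -0.30 to 0.021, NR1H3 from -0.20 to 0.16 (0.083 without MV4-11 replicate 2) and EZH2 from -0.45 to 0.16. NR1H3 was 0.015 with the regional shift removed. Except where the report or these sentences say so, the cause of a change was not tested.

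With the replicate number as a block 18 members and 3642 genes passed, FDPS, INSIG2, NPC2, NSDHL, SC5D and STARD4 being added and none lost. Same-numbered arrays deviated together (r = 0.26 across genes, which are not independent replicates), but with 2 arrays per line the numbers are not shown to pair the samples. Arrays bound differences by signal over background. All members lay above the background guide, but the guide is not a limit of detection. Of 8 epithelial and fibroblast markers 6 also lay above it on every array. On MV4-11R replicate 1 STARD4 at 6.54 and INSIG2 at 6.74 lay close to it.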
